A study of Mus musculus with 20 samples.

Results

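The genes described here are 33 genes of B cells and of the lymphoid follicles they live in, chosen by name with earlier results of these data known. They are B cell surface and signalling genes, follicle chemokines and their receptors, lymphotoxins and tumour necrosis factor (TNF) receptors. Genes of follicle vessels and epithelium complete the list. The deposited table held 32 of them among 55487 rows that name a mouse gene; Fdcsp had no row of that name. Their levels were read in bulk RNA sequencing of polyA RNA from mouse small intestine. The mice were offspring of control dams or of dams with periodontitis (an inflammation of the tooth-supporting tissue) and were 2 or 7 weeks old. That gave 4 groups of 5 libraries: control at 2 weeks, periodontitis at 2 weeks, control at 7 weeks and periodontitis at 7 weeks. The labels give no strain, sex, litter, intestinal segment or pooling, so whether the 5 libraries of a group came from separate litters is not known, and p-values measure only the spread between these libraries.

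Mature B cells of the small intestine gather in Peyer's patches and isolated lymphoid follicles. Stromal cells of a follicle make Cxcl13, which draws B cells carrying its receptor Cxcr5, while Ccl19 and Ccl21 draw cells carrying Ccr7 into the neighbouring T cell zone. Lymphotoxin made by lymphocytes keeps this stroma in place, Madcam1 on venules lets lymphocytes enter, and M cells, which carry Gp2, sample the gut contents above the follicle. In bulk tissue, fewer cells of a type and less RNA per cell cannot be told apart.

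The libraries held 14882204 to 42563229 counts. Expression is given as CPM (counts of a gene relative to the library's scaled total), in the order of libraries 1 to 5 and with control before periodontitis offspring where 2 series of values stand together. Of the 32 genes 30 had enough counts to be tested; Ccr6 and Lta did not. Library 5 of the control group at 2 weeks stood apart, with the fewest counts, 20080 genes detected and 29.4% of counts from mitochondrial genes. Its levels of the follicle genes varied with base composition. Of 22 members whose longest annotated transcript has a GC content of 50% or more, 16 were lower in this library than in each of the other 4 controls and 3 were higher. Of 10 members with a GC content under 50%, 0 were lower and 8 were higher. Its ratio to the mean of the other 4 ran from 0.128 for Ltb (GC 61.0%) to 4.60 for Ebf1 (GC 43.05%). Across the 32 genes this log2 ratio and GC content had a Pearson r of -0.771 and a Spearman rho of -0.779, and across 16734 of all genes tested -0.645 and -0.668. These are descriptions of 1 library across genes, which are not independent.

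**Figure D1:**
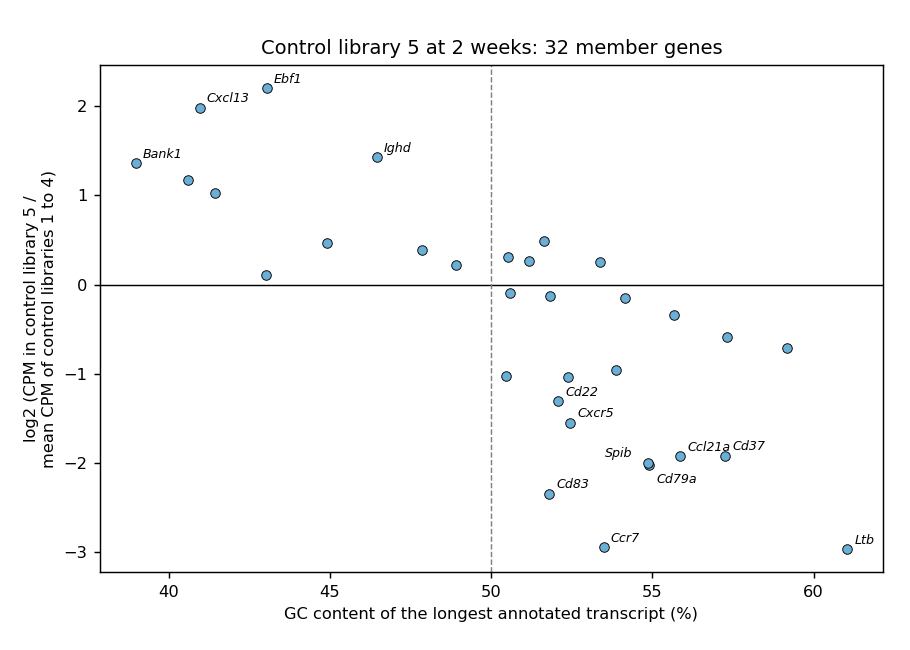
Each point is 1 of the 32 genes: its GC content (x, %) against the log2 ratio of its CPM in control library 5 at 2 weeks to the mean of control libraries 1 to 4 (y). Points left of 50% GC lie above 0 and Ltb, at 61.0% GC, lies lowest.

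CPM divided by exon length allows levels of different genes to be compared. At 2 weeks in control offspring the highest was Ccl21a at 31.2 ± 12.2 CPM per kilobase (mean ± SD, n = 5), then the IgM heavy chain gene Ighm at 8.3 ± 0.442 and Tnfrsf11a at 5.71 ± 0.791. Cxcl13 at 3.58 ± 3.01, Madcam1 at 2.95 ± 0.626 and Cd79b at 2.93 ± 0.247 CPM per kilobase came next and did not differ beyond their spread. The lowest were Pax5 at 0.125 ± 0.0136 and Ccr6 at 0.0878 ± 0.0106. At 7 weeks in control offspring Ighm, at 9.86 ± 6.47 CPM per kilobase, Ccl21a, at 7.38 ± 3.69, and Tnfrsf11a, at 7.15 ± 0.891, did not differ beyond their spread. In periodontitis offspring of that age Ccl21a was at 6.14 ± 3.63, Tnfrsf11a at 5.87 ± 1.46 and Ighm at 3.72 ± 1.74 CPM per kilobase.

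The summed level of these genes differed more between control libraries at 7 weeks (82.0 to 241.6 CPM) than at 2 weeks (140.9 to 159.1 CPM), while single genes such as Ccl21a, Ebf1 and Gp2 had the larger SD at 2 weeks. Among control offspring at 7 weeks, library 3 was the highest of the 5 for 27 of the 32 genes and library 5 the lowest for 29. The summed CPM of the 12 B cell surface genes in control libraries 1 to 5 was 54.1, 40.8, 118.5, 41.0 and 15.5. In periodontitis offspring at 7 weeks it was 16.2, 9.11, 11.1, 30.7 and 24.8, so control library 5 lay inside the periodontitis range and the 2 groups overlapped. Periodontitis library 4 was the highest of its group for 21 of the 32 genes and library 5 for 10. The number of the 32 genes with 0 counts was 8, 10, 7, 3 and 2 in periodontitis libraries 1 to 5, 4 in control library 5 and 0 in the other 4 control libraries. A count of 0 in those periodontitis libraries allows a level of up to 0.0868 to 0.187 CPM, taken as 3 counts and covering counting error only. At 2 weeks every one of the 32 genes had counts in every library, and the same sum was 41.8 to 51.6 CPM in control and 27.5 to 61.5 CPM in periodontitis offspring.

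**Figure D2:**
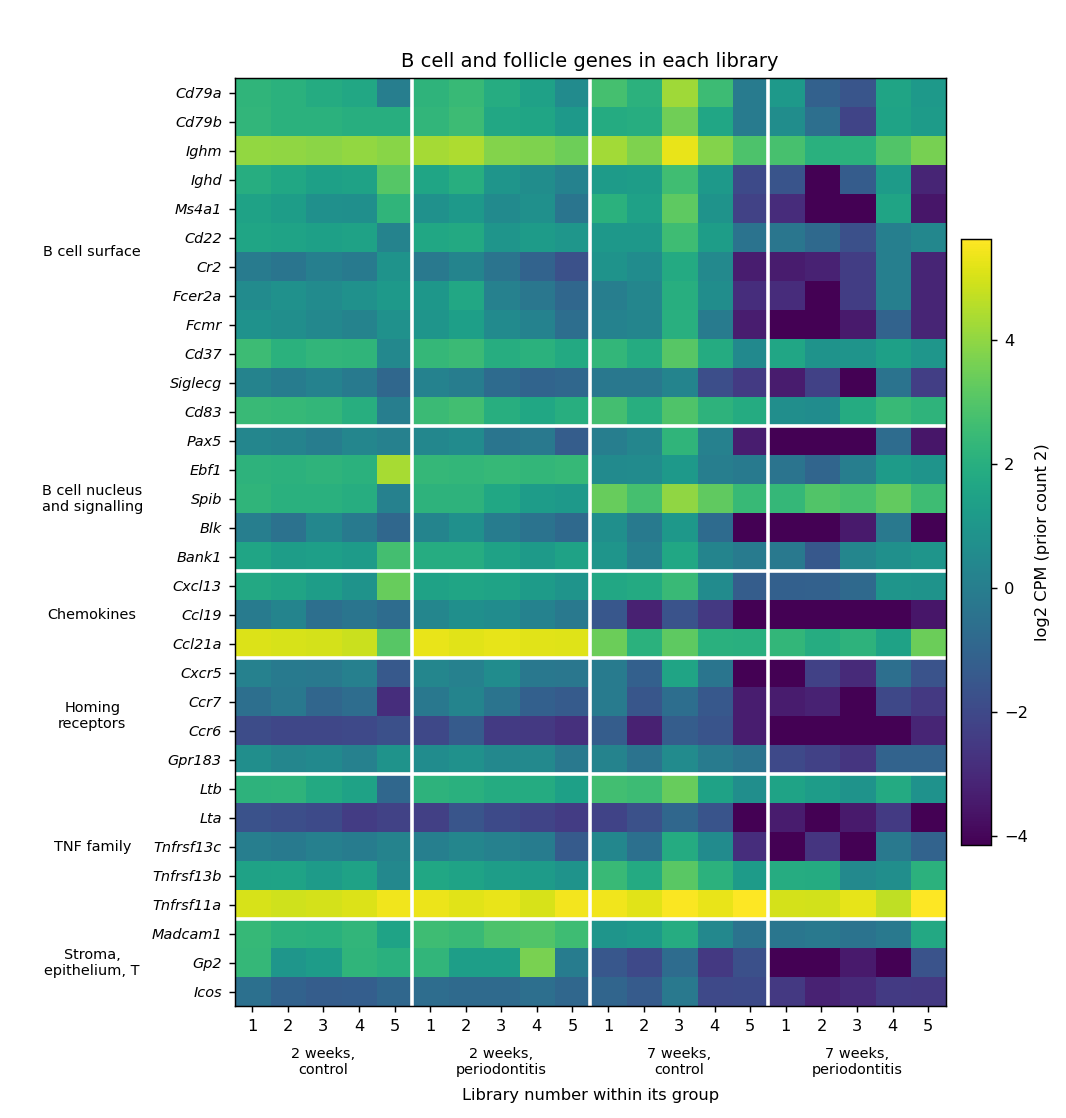
Rows are the 32 genes by role, columns the 20 libraries by group, and colour is log2 CPM (prior count 2). Control library 3 at 7 weeks is the brightest column of its group. Control library 5 and periodontitis libraries 1 to 3 and 5 at 7 weeks are dark for many of the B cell genes.

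The first question of the design was whether offspring of dams with periodontitis differed from control offspring at the same age. At 2 weeks they did not differ detectably in these genes. In edgeR's quasi-likelihood test over 17464 genes, with Benjamini-Hochberg adjusted p values, 0 of the 30 tested members passed a threshold of 0.05, which 0.0286% of all genes did (5 genes). By unadjusted p under 0.05 the number was also 0, and by DESeq2 it was 0. The median log2 fold change of the 30 was 0.03, against 0.02 for all genes, with 17 members above 0 and 13 below. The highest was Ccl19 (log2 fold change 0.62 ± 0.40 SE, adjusted p = 0.497) and the lowest Ighd (-0.82 ± 0.72, adjusted p = 0.614). Ccl21a and Madcam1 were the 2 members whose libraries did not overlap between the dams, both higher in periodontitis offspring. Of all genes 3.71% were higher without overlap. A list of 7 genes of the distal small intestine summed to 1914 to 2905 CPM in control libraries at 2 weeks. In periodontitis libraries 1 to 5 they summed to 2300, 2156, 1249, 999.2 and 961.2 CPM. The 12 B cell surface genes there summed to 53.7, 61.5, 37.5, 34.4 and 27.5 CPM. Of the 7 distal genes 5 were negative and 2 positive between dams, 4 at an unadjusted p under 0.05. EdgeR called 0 of them and DESeq2 2. The part of the sampled region was not tested.

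At 7 weeks all 30 tested members had a lower fitted level in periodontitis than in control offspring, and 0 passed the threshold, which 0.0115% of all genes did (2 genes). At an unadjusted p under 0.05 there were 21 members, all lower, against 1.67% of all genes lower and 3.33% in either direction. The members were chosen with earlier results of these data known, and the same libraries were high or low for most of them. These counts are therefore not separate observations and not a test of the list. By DESeq2, 5 passed (Ighm, Cd22, Fcmr, Pax5 and Gpr183) of 25 genes in all. The median log2 fold change of the 30 members was -1.84, against 0.02 for all genes, of which 45.1% were negative. The smallest adjusted p in edgeR were those of Gpr183, a receptor that positions B cells in the follicle (-1.87 ± 0.36, adjusted p = 0.142), the T helper receptor Icos (-2.06 ± 0.42, adjusted p = 0.194) and the IgM receptor Fcmr (-4.04 ± 0.88, adjusted p = 0.223). Gpr183 and Icos were also the 2 members with no overlap between the dams' libraries, against 0.281% of all genes lower without overlap. Leaving out control library 3 moved the median to -1.37, with 29 of 30 members negative; Ebf1, at -0.14 with all libraries, was then at 0.0905. Ccl21a, at -0.26, was at 0.0026 without control library 1. Without periodontitis library 4, Ms4a1 and Pax5 passed (adjusted p = 0.0213 and 0.0292), and without periodontitis library 5, Gpr183 did (0.0189).

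The difference between the dam effect at 7 and at 2 weeks, which is also the difference between the age effect in the 2 kinds of offspring, was called for 0 of the 30 members in edgeR, against 0.0229% of all genes (4 genes). There were 16 members at an unadjusted p under 0.05, against 8.8% of all genes, and 3 by DESeq2 (Fcmr, Ccl19 and Gpr183). The median difference was -1.65 on the log2 scale, with 29 of 30 members negative, against 0.01 for all genes. The smallest adjusted p was 0.186, for Ccl19 and for Icos (-2.33 ± 0.53). Without control library 5 at 2 weeks and periodontitis library 5 at 7 weeks together, Gpr183 passed (-2.23, adjusted p = 0.0336). Of the 4 genes called in all, 2 were the fat tissue genes Cfd (7.47 ± 1.12, adjusted p = 0.0156) and Retn (7.05 ± 1.15, adjusted p = 0.0238), opposite in sign to 29 of the 30 members.

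**Figure D3:**
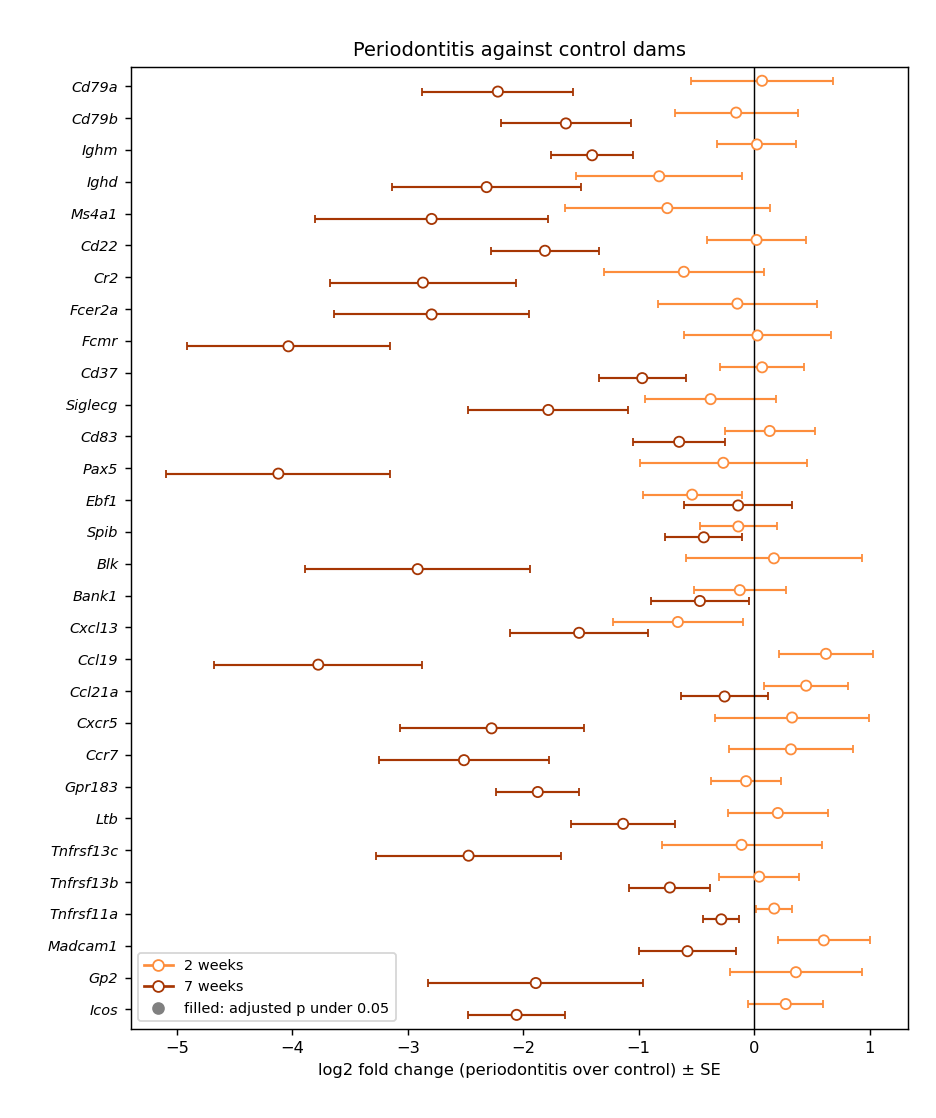
For each of the 30 tested genes the log2 fold change of periodontitis over control (x, ± SE) at 2 weeks (light) and 7 weeks (dark), from the fit to all 20 libraries. No point is filled, since none passed an adjusted p of 0.05; the 7-week points all lie below 0, from -4.12 for Pax5 to -0.14 for Ebf1, and the Ccl19 point at 7 weeks rests on 1 count in the periodontitis group.

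Age was the second question. From 2 to 7 weeks in control offspring, 8 of the 30 members passed the threshold. Spib and Tnfrsf13b rose, while Ebf1, Bank1, Ccl19, Ccl21a, Madcam1 and Gp2 fell. Age changed a large part of all genes, 34.4% of which fell and 27.1% rose, and 2 higher and 6 lower of 30 is not above those shares. The median of the 30 was 0.07 on the log2 scale (all genes -0.13). It was -0.52 without control library 3 at 7 weeks. Without control library 5 at 2 weeks 3 rose and 5 fell. Of 7 genes of the distal small intestine, 2 rose and 3 fell with age in control offspring. In periodontitis offspring 3 rose and 3 fell. Fgf15, 1 of the 7, read 39.5 to 126 CPM over both at 2 weeks and 0 in every 7-week library. Fabp6 read 196.6 to 510 CPM in control offspring at 2 weeks and 0 to 0.7245 CPM at 7 weeks. The labels name no segment, and the part of the sampled region in these age changes was not tested.

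In periodontitis offspring 22 of the 30 members passed between 2 and 7 weeks, 21 lower and 1 (Spib) higher, and without periodontitis library 5 at 7 weeks 22 lower and 1 higher. In the same comparison 35.7% of all genes fell and 30.4% rose, and the median log2 fold change was -1.89 for the members against -0.11 for all genes. The libraries of the 2 ages did not overlap for 13 of the members that fell; 28.3% of all genes were lower without overlap. In control offspring 3 members were lower without overlap, against 23.2% of all genes. The numbers of members called in control and in periodontitis offspring are not a test of a difference between them; that test is the one above, with 0 called. The comparisons between dams at 7 weeks and between ages in periodontitis offspring share the same 5 periodontitis libraries.

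**Figure D4:**
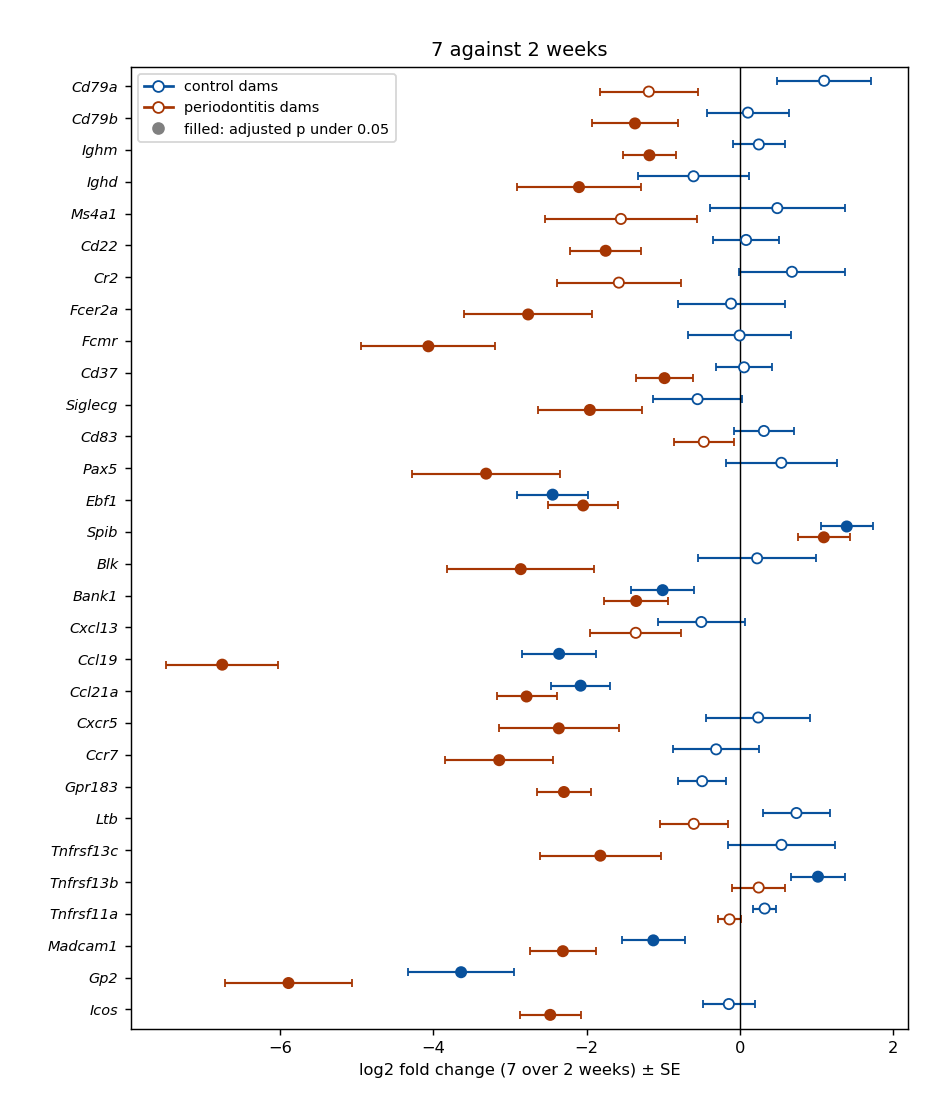
For each of the 30 tested genes the log2 fold change of 7 over 2 weeks (x, ± SE) in control (blue) and periodontitis offspring (brown); filled points passed an adjusted p of 0.05. Filled in both are Spib, above 0, and Ebf1, Bank1, Ccl19, Ccl21a, Madcam1 and Gp2, below 0; the Ccl19 point of periodontitis offspring rests on 1 count at 7 weeks.

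Among the follicle chemokines, Ccl19 and Ccl21a fell with age in both kinds of offspring. Both ligands of Ccr7 lie on chromosome 4 (GRCm38, Ccl19 at chr4:42754525-42756577, minus strand, and Ccl21a at chr4:42772860-42773993, minus strand). Ccl21a read 34, 32.4, 31.9, 28.9 and 8.37 CPM in control libraries 1 to 5 at 2 weeks and 10.7, 4.22, 9.12, 4.09 and 4.03 at 7 weeks. In periodontitis offspring it read 38.9, 36.8, 38.8, 36.1 and 35.4 CPM at 2 weeks and 4.99, 3.73, 4.43, 2.74 and 10.8 at 7 weeks. Of the 2-week libraries only control library 5, the one that stood apart, lay within the range of the 7-week libraries. The fall was -2.08 ± 0.38, adjusted p = 0.000128 in control and -2.78 ± 0.39, adjusted p = 5.81e-06 in periodontitis offspring. The table holds near-identical copies of this gene, named Ccl21b, Ccl21c and Ccl21d, between which reads may have been split; with the counts of all copies summed the changes were -2.26 and -3.14, and both passed. Between dams, Ccl21a had a log2 fold change of 0.45 ± 0.36, adjusted p = 0.584 at 2 weeks and -0.26 ± 0.38, adjusted p = 1 at 7 weeks.

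Ccl19 read 0.891, 1.15, 0.614, 0.726 and 0.563 CPM in control and 1.2, 1.6, 1.46, 1.09 and 0.827 CPM in periodontitis offspring at 2 weeks. At 7 weeks control libraries read 0.298, 0.049, 0.262, 0.117 and 0 CPM, 21 counts in all. The 5 periodontitis libraries held 1 count together, in library 5. The fall in control offspring was -2.36 ± 0.48, adjusted p = 0.00036, without overlap. In periodontitis offspring Ccl19 fell too (adjusted p = 2.91e-07), and the rate at 2 weeks over that at 7 weeks, 312 counts against 1, was 153 (95% exact interval 27.3 to 6080, counting error only). The rate in control over periodontitis offspring at 7 weeks was 19.9 (3.20 to 822), and the test between dams gave an adjusted p of 0.319. Cxcl13, the B cell chemokine, was called in no comparison by edgeR; with age in periodontitis offspring it was at -1.36 ± 0.60, adjusted p = 0.0507, and DESeq2 called it lower there. It ranged over 0.362 to 5.51 CPM in control and 0.393 to 1.87 CPM in periodontitis offspring at 7 weeks, with a dam difference of -1.52 ± 0.60, adjusted p = 1.

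Madcam1 (chr10:79664559-79668537, plus strand), the venule ligand of lymphocyte integrins, also fell with age in both. It read 5.15, 4.35, 4.07, 4.82 and 2.82 CPM in control libraries at 2 weeks and 1.89, 2.16, 3.71, 1.28 and 0.684 at 7 weeks. In periodontitis offspring the values were 5.91, 5.52, 7.3, 7.78 and 5.95 CPM and then 0.747, 0.819, 0.693, 0.81 and 3.3. At 2 weeks every periodontitis library was above every control library (dam difference 0.60 ± 0.40, adjusted p = 0.505). The age change was -1.13 ± 0.41, adjusted p = 0.0228 in control and -2.31 ± 0.43, adjusted p = 0.000106 in periodontitis offspring, where library 5 was highest at 7 weeks. The control call was lost without control library 4 or without control library 5 at 7 weeks (adjusted p = 0.0597 and 0.0609). Among 6 genes of lymphatic endothelium (Lyve1, Prox1, Pdpn, Flt4, Reln and Mmrn1), cells that also make Ccl21, 6 fell with age in each kind of offspring, where 34.4% and 35.7% of all genes fell in control and periodontitis offspring. Their summed level was 55.6 to 104 CPM at 2 weeks and 16.9 to 29.3 CPM at 7 weeks in control offspring, and 57.0 to 67.0 against 18.5 to 26.6 CPM in periodontitis offspring; their part in the change of Ccl21a was not tested.

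The 250 bases before the start of 4 of these genes are shown, from RefSeq on GRCm38.p6, 5′ to 3′ on the gene's strand. Ccl21a, Madcam1 and Spib are shown because they changed with age in both kinds of offspring, and Gpr183 because its p between dams at 7 weeks was the smallest of the members. Capitals mark a match to 1 of 4 motifs searched on both strands: the core motif of the B cell factor EBF1 (TCCCNNGGG), the octamer of Oct factors (ATGCAAAT), an Ets motif of PU.1 and Spi-B type (GAGGAAGT) and the kappaB motif of NF-kappaB factors.
Ccl21a: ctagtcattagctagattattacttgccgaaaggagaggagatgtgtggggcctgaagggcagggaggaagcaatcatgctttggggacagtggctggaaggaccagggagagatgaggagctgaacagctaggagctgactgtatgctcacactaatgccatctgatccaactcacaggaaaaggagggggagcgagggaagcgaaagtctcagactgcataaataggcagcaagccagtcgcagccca
Madcam1: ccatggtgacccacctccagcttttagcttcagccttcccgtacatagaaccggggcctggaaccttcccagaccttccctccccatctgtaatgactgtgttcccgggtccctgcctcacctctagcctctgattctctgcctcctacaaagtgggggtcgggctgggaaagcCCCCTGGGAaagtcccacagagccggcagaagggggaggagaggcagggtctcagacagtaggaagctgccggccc
Spib: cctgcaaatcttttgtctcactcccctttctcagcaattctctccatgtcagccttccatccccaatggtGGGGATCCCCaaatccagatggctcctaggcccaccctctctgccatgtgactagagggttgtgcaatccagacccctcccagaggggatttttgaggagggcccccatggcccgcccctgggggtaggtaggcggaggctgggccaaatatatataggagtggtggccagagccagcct
Gpr183: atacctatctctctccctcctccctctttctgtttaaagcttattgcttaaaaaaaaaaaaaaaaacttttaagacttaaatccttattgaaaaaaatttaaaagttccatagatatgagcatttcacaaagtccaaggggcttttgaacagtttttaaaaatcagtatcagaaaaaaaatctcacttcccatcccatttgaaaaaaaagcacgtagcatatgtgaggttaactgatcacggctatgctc
They lie at chr4:42773992-42774241, minus strand, at chr10:79664309-79664558, plus strand, at chr7:44532072-44532321, minus strand, and at chr14:121965194-121965443, minus strand. The start is that of RefSeq. For Ccl21a and Gpr183 the last 2 bases shown lie inside the gene coordinates given here, which come from another annotation. Madcam1 holds an EBF match that begins 76 bases before the start, and Spib a kappaB match that begins 180 bases before it. Of the 23 members with an entry in this table, 2 (8.70%) held the EBF motif, Cd22 being the other, against 6.45% of 27025 genes. The kappaB motif was found in 3 (13.0%, Ccr6, Fcmr and Spib; all genes 5.74%), the octamer in 1 (4.35%, Ccr6; 1.81%) and the Ets motif in 1 (4.35%, Cd37; 2.79%). A match describes letters, not binding.

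Receptors that guide lymphocytes to and within the follicle fell with age in periodontitis offspring, where 3 of 3 tested passed and 35.7% of all genes fell. In control offspring 0 of 3 passed (also 0 at an unadjusted p under 0.05 and 0 by DESeq2), where 34.4% of all genes fell. The difference between these age effects was called for 0 of the 3 by edgeR (smallest adjusted p = 0.321). It was called for 1 by DESeq2, and 3 reached an unadjusted p under 0.05. Gpr183 (chr14:121952551-121965195, minus strand) read 1.53, 1.22, 1.34, 1.06 and 1.77 CPM in control and 1.46, 1.66, 1.28, 1.3 and 0.827 CPM in periodontitis offspring at 2 weeks. At 7 weeks it read 1.13, 0.687, 1.44, 0.895 and 0.684 CPM in control and 0.197, 0.153, 0.104, 0.436 and 0.434 CPM in periodontitis offspring. The highest periodontitis library was thus below the lowest control library at 7 weeks, and below every library at 2 weeks. Its age change was -2.30 ± 0.35, adjusted p = 1.52e-05 in periodontitis and -0.49 ± 0.32, adjusted p = 0.182 in control offspring. The dam difference at 7 weeks had an adjusted p of 0.142 in edgeR, 0.000698 in DESeq2 and 0.0189 in edgeR without periodontitis library 5.

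Cxcr5 read 0.895, 0.392, 2.89, 0.74 and 0 CPM in control and 0, 0.153, 0.0693, 0.623 and 0.26 CPM in periodontitis libraries at 7 weeks. At 2 weeks its values were 1.06, 0.851, 0.819, 1.03 and 0.322 CPM and 1.22, 1.04, 1.48, 0.784 and 0.782 CPM. Control library 3 alone was above all 2-week libraries, and control library 5 was at 0. Cxcr5 fell in periodontitis offspring without overlap of the ages (-2.36 ± 0.79, adjusted p = 0.0126), and the dam difference at 7 weeks was -2.27 ± 0.80, adjusted p = 1. Ccr7 read 0.895, 0.294, 0.59, 0.311 and 0.0403 CPM in control and 0.0393, 0.0512, 0, 0.187 and 0.116 CPM in periodontitis offspring at 7 weeks, after 0.62, 0.805, 0.477, 0.572 and 0.0805 and 0.785, 1.15, 0.71, 0.392 and 0.335 CPM at 2 weeks. It fell in periodontitis offspring (-3.14 ± 0.71, adjusted p = 0.000679), and the dam difference at 7 weeks was -2.51 ± 0.74, adjusted p = 0.791. Ccr6, the receptor of Ccl20 on B cells near the follicle epithelium, had too few counts for the test: 39 and 43 counts in control and periodontitis offspring at 2 weeks, and 31 and 2 at 7 weeks. The rate in control over periodontitis offspring at 7 weeks was 14.7 (95% exact interval 3.73 to 126, counting error only).

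B cell surface genes showed no detectable change with age in control offspring (0 of 12 called by edgeR, also 0 at an unadjusted p under 0.05, and 0 by DESeq2), and 8 of 12 fell in periodontitis offspring. Of all genes 34.4% fell in control and 35.7% in periodontitis offspring. The difference between these age effects was called for 0 of the 12 by edgeR (smallest adjusted p = 0.35). It was called for 1 by DESeq2, and 6 reached an unadjusted p under 0.05. Ighm read 16.2, 16, 15, 16.5 and 14.6 CPM in control and 19.97, 21.3, 14.1, 13.2 and 11.1 CPM in periodontitis offspring at 2 weeks. At 7 weeks it read 19.2, 13.3, 39.1, 13.9 and 7.45 CPM in control and 6.76, 4.09, 4.26, 7.85 and 12.1 CPM in periodontitis offspring, with control library 5 inside the periodontitis range. It fell in periodontitis offspring (-1.18 ± 0.35, adjusted p = 0.00612), and the dam difference at 7 weeks was -1.40 ± 0.35, adjusted p = 0.391 (adjusted p = 0.0412 in DESeq2). Plasma cells express Ighm and Tnfrsf13b too; the summed level of plasma cell genes is given with the other lists.

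Fcmr (chr1:130865669-130880791, plus strand) had the largest fitted dam difference of the surface genes. Its 7-week values were 1.09, 1.18, 4.03, 0.895 and 0.0403 CPM in control and 0, 0, 0.0346, 0.436 and 0.0578 CPM in periodontitis offspring, the latter from 10 counts in all. The 2-week values were 1.74, 1.54, 1.27, 1.1 and 1.69 CPM and 1.85, 2.51, 1.4, 1.09 and 0.604 CPM. Control library 5 was as low as the periodontitis libraries, and periodontitis library 4 was the highest of its group. Fcmr fell with age in periodontitis offspring without overlap (-4.07 ± 0.88, adjusted p = 0.000465), and its dam difference at 7 weeks was -4.04 ± 0.88, adjusted p = 0.223 (adjusted p = 0.00144 in DESeq2).

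The inhibitory receptor Cd22 read 2.06, 2.06, 5.97, 2.37 and 0.684 CPM in control and 0.747, 0.512, 0.242, 0.997 and 1.24 CPM in periodontitis offspring at 7 weeks. Its values at 2 weeks were 2.98, 2.78, 2.62, 2.77 and 1.13 CPM and 3.16, 3.43, 1.87, 2.27 and 1.92 CPM. The ages did not overlap in periodontitis offspring (-1.75 ± 0.46, adjusted p = 0.00257), while the dams' libraries at 7 weeks did (-1.81 ± 0.47, adjusted p = 0.419; adjusted p = 0.0384 in DESeq2). Fcer2a, the low-affinity IgE receptor of follicular B cells, read 0.962, 1.23, 3.84, 1.52 and 0.0805 CPM and 0.0786, 0, 0.139, 0.997 and 0.0578 CPM at 7 weeks in control and periodontitis offspring. Its 2-week values were 1.43, 1.68, 1.43, 1.67 and 2.17 CPM and 1.96, 3.24, 1.05, 0.767 and 0.492 CPM. In periodontitis offspring it fell (-2.76 ± 0.84, adjusted p = 0.00682), with library 4 above the lowest 2-week libraries.

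Siglecg, an inhibitory lectin of B cells, read 0.796, 0.785, 1.15, 0.234 and 0.121 CPM in control and 0.0393, 0.153, 0, 0.685 and 0.145 CPM in periodontitis offspring at 7 weeks. At 2 weeks it read 1.1, 0.92, 1.09, 0.858 and 0.483 CPM and 1.08, 0.938, 0.548, 0.443 and 0.492 CPM, and it fell in periodontitis offspring (-1.96 ± 0.68, adjusted p = 0.0158). Cd79b, Ighd and Cd37 also fell there (log2 fold changes -1.37, -2.10 and -0.98; adjusted p = 0.0379, 0.0288 and 0.027). Their 7-week ranges in control and periodontitis offspring overlapped: 0.885 to 11.3 and 0.173 to 2.8 CPM for Cd79b, the signalling partner of the B cell receptor, 0.201 to 6.13 and 0 to 2.24 CPM for the IgD gene Ighd, and 1.37 to 8.33 and 1.79 to 3.03 CPM for the tetraspanin gene Cd37. The Cd37 call was lost without periodontitis library 2 at 2 weeks or libraries 2 or 3 at 7 weeks (adjusted p 0.06 to 0.0624). Cd79b lost its call without libraries 1 or 2 at 2 weeks or 1, 2 or 3 at 7 weeks (0.0613 to 0.0904), and Ighd without these or library 5 at 7 weeks (0.0513 to 0.0675). The 4 surface genes not called were Cd79a, Ms4a1 (the CD20 gene), Cr2 (the complement receptor of B cells and follicular dendritic cells) and the activation marker Cd83. At 7 weeks Ms4a1 ranged over 0.161 to 9.02 CPM in control and 0 to 2.87 CPM in periodontitis offspring, where 46 of 49 counts lay in library 4. Cr2 ranged over 0.0403 to 3.51 and 0.0393 to 0.997 CPM in the same groups. Cd79a ranged over 0.885 to 18.6 and 0.277 to 2.87 CPM, with no periodontitis library at 0, and Cd83 over 3.54 to 7.58 and 1.48 to 5.36 CPM.

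Of the transcription factors and signalling genes, Spib rose with age and Ebf1 and Bank1 fell in both kinds of offspring. Spib (chr7:44525993-44532071, minus strand), an Ets factor of B cells that M cells also need, read 4.69, 4.14, 4.09, 3.76 and 1.05 CPM in control and 4.39, 4.45, 3.1, 2.3 and 2.17 CPM in periodontitis offspring at 2 weeks. At 7 weeks it read 10.2, 6.62, 16, 9.34 and 5.31 CPM and 5.15, 7.78, 6.86, 9.53 and 5.96 CPM, so that no 7-week library was as low as any at 2 weeks. The rise was 1.40 ± 0.34, adjusted p = 0.00145 in control and 1.10 ± 0.34, adjusted p = 0.00747 in periodontitis offspring. It was the only member called higher in periodontitis offspring.

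Ebf1 (chr11:44617317-45008091, plus strand), the early B cell factor that stromal cells and adipocytes also express, read 4.42, 4.37, 4.59, 4.18 and 20.2 CPM in control and 5.1, 4.94, 5.26, 4.95 and 5.25 CPM in periodontitis offspring at 2 weeks. Control library 5 lay far above the other 9 libraries of that age. At 7 weeks it read 1.39, 1.42, 2.13, 0.973 and 0.845 CPM and 0.708, 0.46, 0.97, 2.24 and 1.82 CPM, without overlap with 2 weeks. The fall was -2.44 ± 0.46, adjusted p = 0.000175 in control and -2.04 ± 0.46, adjusted p = 0.000701 in periodontitis offspring. Its dam difference at 2 weeks, -0.54 ± 0.43, adjusted p = 0.582, turned to 0.21 when control library 5 was left out.

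Bank1, an adaptor of B cell receptor signalling, read 2.98, 2.37, 2.52, 2.27 and 6.52 CPM in control libraries at 2 weeks and 1.86, 1.03, 3.15, 1.13 and 0.885 CPM at 7 weeks. In periodontitis offspring the values were 3.68, 3.64, 2.72, 2.18 and 2.75 CPM and 0.826, 0.307, 1.21, 1.62 and 1.85 CPM, without overlap. The fall was -1.01 ± 0.41, adjusted p = 0.0395 in control and -1.35 ± 0.42, adjusted p = 0.00768 in periodontitis offspring. The control call was lost at -0.64 (adjusted p = 0.136) without control library 5 at 2 weeks. It was also lost without library 1 at 2 weeks or libraries 1, 2, 4 or 5 at 7 weeks (adjusted p 0.0512 to 0.0982), without the filter (0.05085) and with only the groups compared (0.0531).

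Pax5 (chr4:44524757-44710487, minus strand), which fixes B cell identity and which plasma cells switch off, read 0.962, 1.23, 4.72, 1.05 and 0.0403 CPM in control and 0, 0, 0, 0.561 and 0.0289 CPM in periodontitis offspring at 7 weeks. At 2 weeks it read 1.22, 1.1, 0.932, 1.21 and 1.05 CPM and 1.25, 1.43, 0.731, 0.819 and 0.358 CPM. Of its 10 counts in periodontitis offspring at 7 weeks 9 lay in library 4, and control library 5 held 1 count. Pax5 fell with age in periodontitis offspring (-3.31 ± 0.97, adjusted p = 0.00553). Its dam difference at 7 weeks was -4.12 ± 0.97, adjusted p = 0.311, and the adjusted p was 0.0072 in DESeq2 and 0.0292 in edgeR without periodontitis library 4.

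The kinase gene Blk followed the same libraries: 1.59, 0.834, 2.03, 0.545 and 0 CPM in control and 0, 0, 0.0346, 0.81 and 0 CPM in periodontitis offspring at 7 weeks. Its values at 2 weeks were 0.969, 0.667, 1.25, 0.858 and 0.483 CPM and 1.14, 1.62, 0.913, 0.682 and 0.514 CPM. It fell with age in periodontitis offspring (-2.86 ± 0.96, adjusted p = 0.0135), with 13 of its 14 counts at 7 weeks in library 4.

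**Figure D5:**
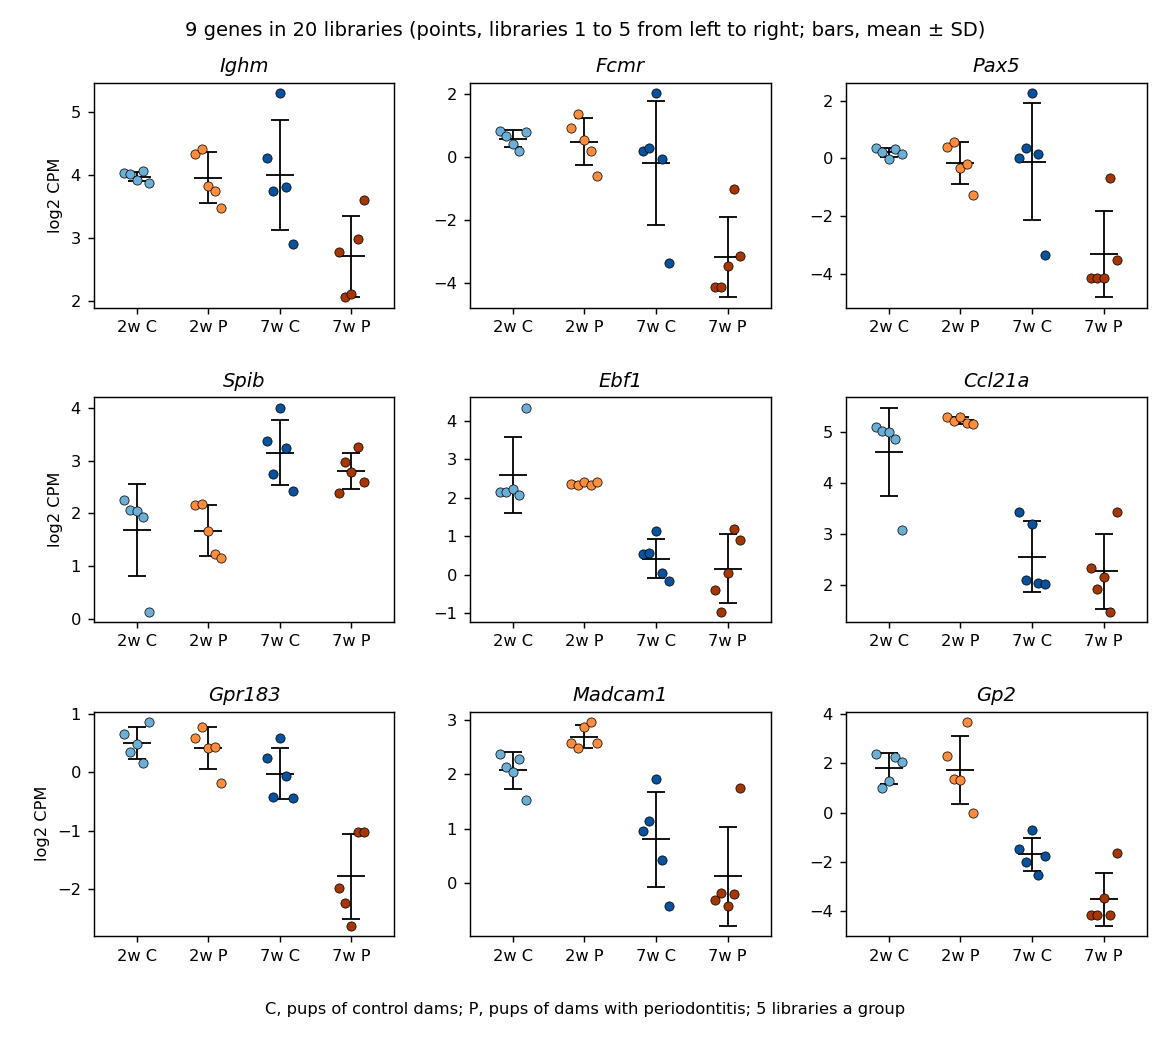
Log2 CPM (y, prior count 2) of 9 genes in control (C) and periodontitis (P) offspring at 2 and 7 weeks (2w, 7w); points are libraries 1 to 5 and bars the mean ± SD. Spib is higher and Ccl21a, Madcam1, Ebf1 and Gp2 lower at 7 weeks, while Fcmr and Pax5 at 7 weeks have 1 low control library and 1 high periodontitis library.

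In the TNF family, Tnfrsf13b (TACI, a receptor of the survival factors BAFF and APRIL) rose with age in control offspring. It read 2.71, 2.81, 2.27, 2.71 and 1.29 CPM at 2 weeks and 5.5, 3.48, 8.62, 4.32 and 2.29 CPM at 7 weeks in control offspring (1.02 ± 0.35, adjusted p = 0.0163). In periodontitis offspring it read 3.12, 2.79, 2.37, 2.27 and 1.77 CPM and 3.69, 3.63, 1.32, 1.56 and 4.37 CPM (0.25 ± 0.35, adjusted p = 0.544). The rise in control offspring was lost without control library 3 at 7 weeks (0.71, adjusted p = 0.0789).

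Tnfrsf13c, the BAFF receptor of mature B cells, read 1.26, 0.637, 3.58, 1.44 and 0.0805 CPM in control and 0, 0.102, 0, 0.81 and 0.434 CPM in periodontitis offspring at 7 weeks. At 2 weeks it read 0.969, 0.851, 1.02, 0.902 and 1.13 CPM and 0.991, 1.19, 1.05, 0.904 and 0.335 CPM. It fell in periodontitis offspring (-1.82 ± 0.79, adjusted p = 0.0496). This call was lost without any of periodontitis libraries 1 to 4 at 2 weeks or 1 to 3 at 7 weeks (adjusted p 0.0691 to 0.108). It was also lost with DESeq2's size factors (0.05095), without the filter (0.056) and with only the groups compared (0.0559). The RANK gene Tnfrsf11a, needed for M cells and expressed along the epithelium, was called in no comparison by edgeR. It read 42.1, 36.3, 47, 39.2 and 49.2 CPM in control and 32, 31.2, 38.4, 25.5 and 48.4 CPM in periodontitis offspring at 7 weeks, and 32.3, 30.1, 31.8, 34.5 and 42.2 and 39.8, 36.2, 39.5, 32.9 and 44.2 CPM at 2 weeks. Ltb, a subunit of the membrane lymphotoxin, was called in none either, with 1.57 to 10.1 CPM in control and 1.74 to 3.49 CPM in periodontitis offspring at 7 weeks (-1.13 ± 0.45, adjusted p = 1). Lta, the other subunit, had 32 and 4 counts in these groups and 40 and 47 at 2 weeks.

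Gp2 (chr7:119442537-119459285, minus strand) fell the most with age in control offspring among the members called. It read 5.13, 1.91, 2.34, 4.73 and 4.11 CPM in control and 4.82, 2.47, 2.44, 12.7 and 0.916 CPM in periodontitis offspring at 2 weeks. At 7 weeks it read 0.298, 0.196, 0.557, 0.117 and 0.241 CPM and 0, 0, 0.0346, 0 and 0.26 CPM, without overlap with 2 weeks in either. The changes were -3.64 ± 0.69, adjusted p = 0.000177 and -5.89 ± 0.83, adjusted p = 5.52e-06, the latter on 10 counts at 7 weeks, 9 of them in library 5. Gp2 is also a protein of pancreatic acinar cells. The summed level of 9 acinar genes, chosen after the values were seen, was 209.9 to 934 CPM at 2 weeks in control and 176 to 1857 CPM in periodontitis offspring, and 11.3 to 36.2 CPM over both at 7 weeks. Most of the sum at 7 weeks was Clps, at 11.1 to 35.9 CPM. All 9 fell with age in both kinds of offspring, where 34.4% and 35.7% of all genes fell in control and periodontitis offspring. Periodontitis library 4, the highest for Gp2 at 2 weeks, also had the highest sum of these genes in its group, though library 1 was above it for Pnlip, Cela2a and Clps, and library 5 had the lowest of both; the part of pancreatic RNA in the Gp2 values was not tested.

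Icos (chr1:60977927-61000320, plus strand), carried by follicular helper T cells, read 0.464, 0.343, 0.82, 0.195 and 0.201 CPM in control and 0.118, 0.0512, 0.0693, 0.125 and 0.116 CPM in periodontitis offspring at 7 weeks, without overlap. At 2 weeks it read 0.639, 0.414, 0.364, 0.374 and 0.483 CPM and 0.58, 0.533, 0.528, 0.614 and 0.492 CPM. It fell with age in periodontitis offspring (-2.47 ± 0.40, adjusted p = 2.59e-05) and was not called in control offspring (-0.14 ± 0.34, adjusted p = 0.732). Its 12 counts in periodontitis offspring at 7 weeks were spread as 1 to 4 per library.

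Genes of the same cells outside the 33 were read from lists chosen by function; their counts with age stand against 34.4% of all genes lower and 27.1% higher in control offspring, and 35.7% lower and 30.4% higher in periodontitis offspring. Of 18 further B cell genes, 0 were called between dams at 7 weeks (10 at an unadjusted p under 0.05), with 17 negative and a median of -0.86. By DESeq2 0 were called too. Cd40 (-1.34 ± 0.36, adjusted p = 0.583) had the smallest p. In periodontitis offspring 9 of the 18 fell with age and 3 rose, with Cd40 (-1.86 ± 0.36, adjusted p = 0.00016) lower and the lymphocyte factor Ikzf3 (2.03 ± 0.36, adjusted p = 7.18e-05) higher. In control offspring 3 fell and 4 rose. Of 6 tested germinal centre genes, 4 rose and 1 fell with age in control offspring, and 3 rose and 2 fell in periodontitis offspring, led by Fas (1.62 ± 0.15 and 1.67 ± 0.15), which other cells express too. Rgs13 (2.69 ± 0.42 and 3.68 ± 0.44), which tuft cells also express, rose as well. S1pr2 fell in both (-1.99 ± 0.43 and -3.05 ± 0.45).

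Of 8 tested M cell and follicle epithelium genes, 3 fell with age in control offspring (Marcksl1, -1.42 ± 0.17, Anxa5 and Ccl9) and 7 in periodontitis offspring, and 0 rose in either. Between dams at 7 weeks 0 of 8 were called by edgeR or DESeq2, 2 at an unadjusted p under 0.05, with a median of -0.56. Of 16 genes of the lymphotoxin pathway, survival factors and follicle stroma, 6 rose and 6 fell with age in control offspring, and 5 rose and 8 fell in periodontitis offspring. The APRIL gene Tnfsf13 (3.05 ± 0.24 and 3.08 ± 0.23) and the BAFF gene Tnfsf13b (1.62 ± 0.20 and 1.33 ± 0.20) rose in both, while Cxcl12 (-2.19 ± 0.23 and -2.25 ± 0.23) fell in both. Between dams at 7 weeks 0 of the 16 were called by edgeR or DESeq2, with 0 at an unadjusted p under 0.05.

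Plasma cell genes were among those that rose with age. Of 10 tested, 7 rose and 1 fell in control offspring, and 5 rose and 1 fell in periodontitis offspring, with Jchain at 6.65 ± 0.72 and 7.41 ± 0.75 and Igha at 6.05 ± 1.05 and 5.39 ± 1.02. The summed level of the 10 was 852 to 6798 CPM in control and 583.6 to 2523 CPM in periodontitis offspring at 7 weeks, highest in control library 3, and 0 of 10 were called between dams by edgeR or DESeq2 (1 at an unadjusted p under 0.05, median -0.91). Of 14 tested T cell genes, 6 rose and 1 fell in control offspring, and 5 rose and 4 fell in periodontitis offspring, with Cd3g at 3.45 ± 0.32 and 3.30 ± 0.31. The summed level of the 16 listed T cell genes at 7 weeks was 54.4 to 104 CPM in control and 37.9 to 106 CPM in periodontitis offspring. Of 12 dendritic cell and macrophage genes, 1 rose and 3 fell in control offspring, 1 rose and 8 fell in periodontitis offspring, and 0 were called between dams at 7 weeks by edgeR or DESeq2 (1 at an unadjusted p under 0.05). Log2 fold changes between dams at 7 weeks were negative for 10 of these 12 (median -0.53), 11 of the 14 T cell genes (-0.31), 9 of the 10 plasma cell genes and 15 of the 16 lymphotoxin pathway and stroma genes (-0.19), against 45.1% of all genes. Of 6 pan-leukocyte genes 6 were negative (median -0.43), 0 were called by edgeR, by DESeq2 or at an unadjusted p under 0.05, and their sum was 113.1 to 221.7 CPM in control and 96.6 to 149.5 CPM in periodontitis offspring.

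Other tissue genes also differed between these libraries. At 7 weeks the summed level of 7 genes of the distal small intestine was 2933 to 5132 CPM in control and 2261 to 6109 CPM in periodontitis offspring, lowest in control library 3 and periodontitis library 5 of their groups. Genes of the proximal small intestine summed to 6570 to 8320 and 5819 to 9020 CPM, lowest in the same libraries. Of 7 tested proximal genes 0 were called between dams by edgeR or DESeq2, with 4 positive and 3 negative log2 fold changes. The sum hides differences of single genes. Cybrd1 read 65.4 to 99.2 CPM in control and 7.28 to 58.4 CPM in periodontitis offspring, without overlap, where 0.281% of all genes were lower without overlap. Slc40a1 read 100 to 193.9 CPM in control offspring and 20.1, 26.2, 21.5, 48 and 695.9 CPM in periodontitis libraries 1 to 5. Periodontitis library 5 is the 7-week library counted among the 2 that stand apart. Genes of fat tissue summed to 8.52 to 19.8 CPM in control and 14.8 to 87.4 CPM in periodontitis offspring, where all 5 tested had positive log2 fold changes between dams (median 4.42); 0 were called by edgeR, 3 by DESeq2 and 5 reached an unadjusted p under 0.05. At 2 weeks all 5 had negative log2 fold changes between dams (median -2.06), with 4 at an unadjusted p under 0.05. EdgeR called 0 of them at that age and DESeq2 called 2 lower. In the difference of the dam effect between ages, which includes the dam difference at each age, 2 of the 5 were called higher by edgeR and 4 by DESeq2. Cfd read 1.09, 0.589, 0.492, 0.389 and 0.845 CPM in control and 14.8, 10.4, 9.49, 39.4 and 0.174 CPM in periodontitis offspring at 7 weeks, so that periodontitis library 5 was below every control library and the other 4 above. The part of fat tissue and of the sampled region in the B cell values was not tested, and the labels do not say whether a Peyer's patch lay in a sample.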

How the data were processed

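The authors deposited 1 table of estimated counts per gene (RSEM expected counts, not normalized) for the 20 libraries. Per the submitters' processing notes, which name tools with no role or order, cutadapt 4.8, FastQC 0.11.8, STAR 2.7.8a and RSEM 1.3.3 were used, with the builds GRCh38 and GRCm38; the annotation and strand setting are not given in the sources used here. Rounding to whole counts changed 0 values, and the 4 rows with no mouse gene ID held 0 counts.

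Counts were tested with edgeR 4.0.16 in R 4.3.3: genes filtered by filterByExpr over the 4 groups, TMM scaling, robust quasi-likelihood fits with 1 mean per group over all 20 libraries (16 residual degrees of freedom) and Benjamini-Hochberg adjustment over the 17464 genes kept, at 0.05. The labelled group defined each sample. CPM used the TMM-scaled library sizes, and log2 CPM a prior count of 2. Standard errors were derived from the log2 fold change and its F statistic. Intervals of count ratios are exact, at 95%, and cover counting error only. The script was tested on simulated data. Alternatives were DESeq2 1.42.0, its size factors, no filter, fewer groups, a replicate block, no robust estimation, scaling without immunoglobulin genes and leaving out each library; 2 others (both libraries that stand apart left out together, Ccl21 copies summed) were chosen after seeing the data.

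The members and gene lists were chosen with earlier results of these data known, and the pancreatic and lymphatic lists after the values were seen. Values in every library are given for members called in any comparison, up to 5 per role by smallest p, and for the member of each role with the largest mean CPM; other lists are given as counts, with values for at most 4 genes by smallest p. Coordinates, lengths and GC content are from the GRCm38 annotation and promoter sequences from RefSeq on GRCm38.p6; no protein sequences were used.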

Additional observations from a re-analysis of the deposited data

Results flagged for a closer look

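Among 128 sets of 5 libraries (32 genes in 4 groups), 21 had 1 library far from the other 4 on the log2 CPM scale. The cut-off was a gap of over 0.71 of the group's range, which 5 independent normal values pass in about 1 of 20 sets. The genes share the same libraries, and a set with counts in only 1 library always passes. The 21 sets are therefore not a test against that rate. Control library 5 at 2 weeks accounted for 12 of the 21. It was far below the other controls for Cd79a (0.03), Cd22 (0.24), Cd37 (0.43), Cd83 (0.03), Spib (0.14), Ccl21a (3.08), Cxcr5 (-1.40), Ccr7 (-2.87), Ltb (-0.89) and Tnfrsf13b (0.43), and far above them for Ebf1 (4.34) and Bank1 (2.72). The 10 low genes all have a GC content of 50% or more and the 2 high ones less. This library also held 29.4% mitochondrial counts, against 3.99 to 9.15% in the other 19, and their part in these values was not tested.

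At 7 weeks periodontitis library 4 was far above its group for Ms4a1 (1.55), Pax5 (-0.70) and Blk (-0.21), and library 5 for Ccl19 (-3.55, 1 count), Ccr6 (-3.13, 2 counts), Madcam1 (1.75) and Gp2 (-1.66, 9 counts). Control library 5 at 7 weeks was far below its group for Cr2 (-3.37), and periodontitis library 5 at 2 weeks for Tnfrsf13c (-1.35).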

How the results depend on the processing

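At 7 weeks the number of members called between dams was 0 in edgeR and 5 with DESeq2, 1 (Gpr183) without both libraries that stand apart, and 0 to 2 when single libraries were left out. For the difference between ages in the dam effect it was 0 in edgeR, 3 with DESeq2 and 1 (Gpr183) without both libraries. At 2 weeks it was 0 under every alternative run. With age, 6 to 8 members were called in control and 18 to 26 in periodontitis offspring when single libraries were left out. The replicate block gave 0 between dams at either age and for the difference, 8 with age in control offspring, where the Bank1 call was lost (adjusted p = 0.05425), and 20 in periodontitis offspring, where those of Cd79b (0.0914) and Tnfrsf13c (0.087) were lost; same-numbered libraries correlated at -0.397 to 0.288, so the numbers were not taken as pairs. The direction turned for Ebf1 between dams at 2 weeks (0.21 without both libraries, -0.69 to 0.22 over single libraries left out), for Ebf1 between dams at 7 weeks (-0.42 to 0.0905) and for Ccl21a between dams at 7 weeks (-0.69 to 0.0026). Without control library 3 at 7 weeks the median age change in control offspring was -0.52 with 23 members negative. The cause of these shifts was not tested. Over all pairs of a called gene and an alternative, the call with age was kept in 132 and lost in 13 in control offspring, and kept in 371 and lost in 26 in periodontitis offspring. Few counts at 7 weeks limited what could be read for some genes, above all Ccl19, Ccr6 and Lta.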
